A study of Mus musculus with 48 samples.

Results

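The 12 libraries described here are the control muscles of FoxP1SkmKO mice in a circadian RNA-sequencing series of 48 libraries, and the measurements are the 24 h rhythms of their transcripts. A gene entered when its mean over these 12 libraries was at least 1 FPKM (fragments per kilobase of transcript, scaled to the size of the library). This rule kept 10029 of the 56748 genes in the table, which is 17.67%, and 9014 of the 10029 were protein coding. Npy1r, a neuropeptide Y receptor gene, lay just inside this threshold, and Snord94, a small nucleolar RNA gene, lay just outside at 0.9997 FPKM.

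The series sampled the tibialis anterior, a fast muscle of the lower leg, from 39- to 55-week-old male mice of 2 genotypes, with and without a pancreatic tumor. FoxP1SkmKO mice were homozygous for a floxed FoxP1 allele (FoxP1fl/fl) and carried Cre driven by the promoter of ACTA1, the actin gene of skeletal muscle fibers, so the other cells of the muscle retained the allele. WT control mice carried the floxed alleles without Cre according to the series text, while the strain label of the samples gave C57BL/6J. Control mice of both genotypes had surgery with an injection of saline into the pancreas, and KPC mice received murine KPC pancreatic cancer cells there instead. All mice were entrained to 12 h of light and 12 h of darkness and then kept in constant darkness. Muscles were taken from 2 mice of each group every 4 h from CT18 to CT38, where CT24 is the start of the subjective day and CT36 the start of the subjective night, when mice are normally active. The WT control and FoxP1SkmKO KPC groups, of 12 libraries each, are used below for comparison only.

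The circadian clock of muscle cells is a loop of transcription factors in which BMAL1 (gene Arntl) and CLOCK bind E-box sequences and switch on genes for their own repressors, the PER and CRY proteins and the REV-ERB receptors. REV-ERB proteins in turn repress Arntl, and the PAR bZIP factors DBP, TEF and HLF carry the rhythm to further genes through D-box sequences. In skeletal muscle, clock output is known to reach glucose uptake, glycogen and lipid metabolism, protein turnover and the myogenic factor MyoD1.

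Each gene's FPKM was fitted by least squares with a 24 h sinusoid. The fit gives a peak time and an amplitude, which is the distance from the fitted mean to the fitted peak in FPKM. An F test of the sinusoid gave a p-value, adjusted over the 10029 genes by the Benjamini-Hochberg method, and genes with an adjusted p under 0.05 are called rhythmic here. All adjusted p-values below come from this test unless another is named. Only 1 cycle was sampled, so peak times after CT38 lie in the 4 h between the last and the first sampled time of day.

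Total counts on genes in the 12 libraries ran from 15251997 to 20139355. Correlations of log2(FPKM + 1) between libraries were at least 0.976, with a median of 0.985, and no pair of mice at the same time agreed within sampling noise (chi-square per degree of freedom 9.285 to 14.48). The first principal component, with 21.97% of the variance, placed the CT18 and CT34 libraries at its ends, and the second, with 16.35%, those of CT26 and CT38. Summed over 8 fiber markers, the libraries held 52010 to 59790 FPKM, and the 6 neutrophil markers summed to at most 2.17 FPKM.

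Foxp1, the targeted gene, did not separate the genotypes. It stood at 0.578 ± 0.0682 FPKM (SD, n = 12) in FoxP1SkmKO control muscle, with a lowest, median and highest value of 0.43, 0.585 and 0.642 FPKM, and at 0.63 ± 0.14 FPKM (SD, n = 12) in WT control muscle, with 0.43, 0.615 and 0.971 FPKM. The ranges overlapped, and an exact permutation test of genotype within circadian time gave p = 0.168 (two-sided, 46656 permutations). These values rest on 100 to 159 reads per library in FoxP1SkmKO control muscle and 99 to 216 in WT control muscle, they sum over the whole gene and all cell types, and they do not check the genotype labels. Foxp1 is below 1 FPKM and is therefore not among the 10029 genes.

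In FoxP1SkmKO control muscle 358 of the 10029 genes were called rhythmic, which is 3.57%, and 924 genes (9.21%) had an unadjusted p under 0.01. Of the 358, 349 were protein coding and 6 were long noncoding RNAs, while none of the 396 processed pseudogenes was called. Amplitudes of the called genes ran from 5.19% to 97.3% of the gene's mean with a median of 18.9%, against a median of 7.87% over all 10029. The mean at the highest time exceeded that at the lowest time by a median of 1.49-fold, by over 2-fold in 64 genes and by under 1.5-fold in 188. In all 358 both mice of the highest time lay above both mice of the lowest, which was also true of 90.14% of all members. The standard error of the peak time had a median of 0.604 h and reached 0.725 h.

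Leaving out any 1 of the 12 libraries reduced the number of calls to between 155 (without CT34 replicate 1) and 323 (without CT30 replicate 1). Methods on a log or count scale called more genes, with 569 by limma on log2(FPKM + 1), 777 by edgeR and 1247 by DESeq2, and these sets held 320, 324 and 338 of the 358.

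Called genes peaked at all times of day. Of the 358, 70 peaked from CT18 to CT22, 78 from CT22 to CT26, 43 from CT26 to CT30, 54 from CT30 to CT34, 67 from CT34 to CT38 and 46 from CT38 to CT42. Over all 10029 genes, rhythmic or not, the fitted peaks fell in these windows in 1395, 1746, 1779, 1930, 1755 and 1424 cases. The window from CT18 to CT22, in the subjective night, thus held 19.6% of the called genes and 13.9% of all. That from CT26 to CT30, in the earlier part of the subjective day, held 12.0% and 17.7%. The called genes that peaked from CT18 to CT22 also had the largest median relative amplitude, 26.0% of the mean, against 15.9% from CT34 to CT38.

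**Figure D1:**
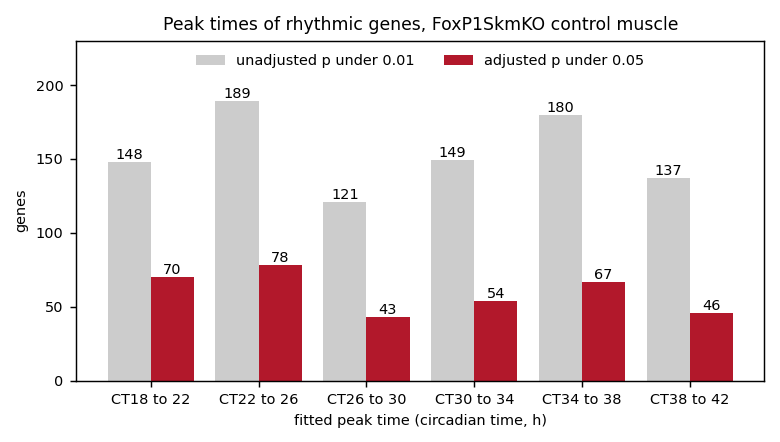
Number of genes (vertical axis) by fitted peak time in 4 h windows of circadian time (horizontal axis) in FoxP1SkmKO control muscle, for genes called at adjusted p under 0.05 and for genes at unadjusted p under 0.01. Called genes are most numerous in the windows from CT18 (70) and CT22 (78) and fewest in the window from CT26 (43).

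Of the 18 clock genes of 3 lists (activators, repressors and PAR bZIP outputs) that reached 1 FPKM, 12 were called (66.7%, against 3.57% of all genes). An unadjusted p under 0.01 was found for 16. Among the 4 activators measured, Arntl and Clock were called. Arntl (chr7:112806672-112913333 in mm39, plus strand), which encodes BMAL1, had the lowest p of all genes: its values in the 2 mice of each time were 3.62 and 3.46 FPKM at CT18, 3.91 and 4.37 at CT22, 3.33 and 3.42 at CT26, 1.22 and 1.25 at CT30, 0.766 and 0.683 at CT34, and 1.8 and 1.48 at CT38. The 6 libraries of CT18 to CT26 all lay above the 6 of CT30 to CT38, and the mice at CT34 were lowest. The fitted amplitude was 1.82 ± 0.079 FPKM, which is 74.5% of the mean, with a peak at CT21.6 ± 0.17 h (adjusted p = 5.36e-05).

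Clock, the partner of Arntl, ran from 1.11 to 2.31 FPKM with a median of 1.78. Both CT34 mice were lowest and the CT18 and CT22 mice highest, with a peak at CT21.3 ± 0.61 h and an amplitude of 25% of the mean (adjusted p = 0.0284). The call of Clock was lost in 9 of the 12 fits that leave out 1 library. Rora encodes a nuclear receptor that activates Arntl. Its amplitude was 11.4% of the mean, and it did not pass the test (adjusted p = 0.258). Npas2, a paralog of Clock, had a mean of 0.211 FPKM and did not enter.

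All 11 repressor genes had an unadjusted p under 0.01, and 7 were called. Nr1d1 (chr11:98658758-98666159 in mm39, minus strand) encodes REV-ERB alpha, a repressor of Arntl. It stood at 13.4 and 11.3 FPKM at CT18, 34.7 and 29.7 at CT22, 59 and 53.2 at CT26, 54.9 and 54.4 at CT30, 28.9 and 23.9 at CT34, and 9.83 and 11.1 at CT38. The CT26 and CT30 mice were the highest and did not overlap any other time, and the CT38 mice were lowest. The amplitude was 25.5 ± 1.3 FPKM or 79.7% of the mean, and the peak at CT27.6 ± 0.2 h (adjusted p = 0.000143) came after that of Arntl.

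Nr1d2, the gene of REV-ERB beta, peaked later, at CT33.2 ± 0.25 h, with a smaller relative amplitude of 34.5% (adjusted p = 0.000481). Its lowest, median and highest values were 13.5, 20.4 and 29.2 FPKM, with the CT30 and CT34 mice at the top and the CT22 mice at the bottom. Nfil3, whose protein E4BP4 competes with the PAR bZIP factors for D-boxes, peaked at CT18.7 ± 0.39 h, in the subjective night (adjusted p = 0.00549). It fell from 18.3 FPKM at CT18 to 5.6 at CT30, and the CT30 mice lay below all others.

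The Period genes encode repressors of CLOCK and BMAL1, and all 3 peaked in the last hours of the subjective day. Per2 (chr1:91343704-91387046 in mm39, minus strand) had the largest fold between times among the called genes, 9.43: its mice stood at 1.56 and 1.58 FPKM at CT18, 0.8 and 0.632 at CT22, 1.22 and 1.41 at CT26, 3.12 and 3.75 at CT30, 6.73 and 6.76 at CT34, and 4.4 and 4.79 at CT38. The CT34 mice were highest and the CT22 mice lowest, and the groups at these times did not overlap. Its amplitude of 2.9 ± 0.26 FPKM was 94.6% of the mean, with a peak at CT34.5 ± 0.34 h (adjusted p = 0.00276). Per3 peaked at CT33.6 ± 0.31 h (adjusted p = 0.00161) and Per1 at CT33.2 ± 0.61 h (adjusted p = 0.0284). Per1 was more scattered, with 4.02 and 6.84 FPKM in the CT18 mice, and its call was lost in 9 of the 12 fits that leave out 1 library.

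Cry2, a cryptochrome repressor, peaked with the Period genes at CT33.5 ± 0.43 h (adjusted p = 0.00787), with a lowest, median and highest value of 4.77, 6.72 and 9.88 FPKM. Cry1 had a fitted peak at CT18.9 ± 0.94 h, on the opposite side of the day, and did not pass (adjusted p = 0.104). Ciart, the gene of the repressor CHRONO, had the largest fold between times of the clock genes, 15.8. Its mice stood at 0.313 and 0.478 FPKM at CT18, 0.362 and 0.361 at CT22, 0.992 and 1.24 at CT26, 5.32 and 6.13 at CT30, 5.36 and 2.59 at CT34, and 0.46 and 0.771 at CT38. The values were high at CT30 and CT34 only, and the CT34 mice stood apart from each other. Ciart had a fitted peak at CT31.3 ± 0.76 h and missed the threshold (adjusted p = 0.0546), as did Bhlhe40 and Bhlhe41, genes of the E-box repressors DEC1 and DEC2 (CT29.8 and CT30.5, adjusted p = 0.0595 and 0.0633). All 16 clock genes at an unadjusted p under 0.01, these included, were called by limma, edgeR and DESeq2.

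All 3 PAR bZIP genes were called. Dbp (chr7:45354512-45359627 in mm39, plus strand) stood at 7.28 and 6.56 FPKM at CT18, 6.34 and 4.66 at CT22, 17.6 and 15.9 at CT26, 41.8 and 46.1 at CT30, 40.6 and 40.8 at CT34, and 14.9 and 15.1 at CT38. The CT30 and CT34 mice did not overlap any other time, and the CT22 mice were lowest. Its amplitude was 20.9 ± 2 FPKM, the largest relative amplitude of the called genes at 97.3% of the mean, with a peak at CT31.8 ± 0.36 h (adjusted p = 0.00409). Tef (chr15:81686622-81711064 in mm39, plus strand) had the second lowest p of all genes. Its values were 35.6, 45.4 and 56.9 FPKM in the lowest, median and highest library, with both CT34 mice at the top and both CT22 mice at the bottom. Tef peaked at CT34.0 ± 0.17 h with an amplitude of 23% of the mean (adjusted p = 5.36e-05), and Hlf at CT33.7 ± 0.64 h with 32.7% (adjusted p = 0.032).

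**Figure D2:**
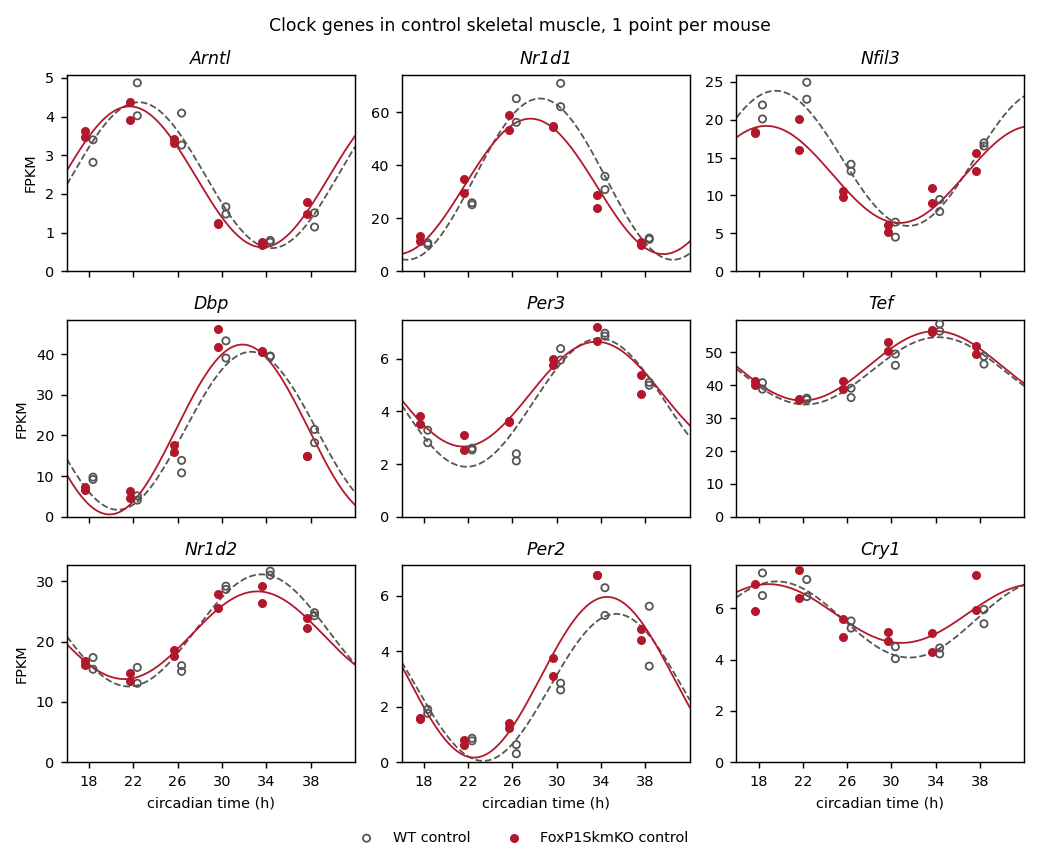
FPKM (vertical axes, from 0) against circadian time (horizontal axes) for 9 clock genes; points are mice, drawn slightly apart at each time, and lines the fitted 24 h sinusoids in FoxP1SkmKO control (filled, solid) and WT control muscle (open, dashed). Arntl is highest at CT22 and lowest at CT34, and Per2, Per3 and Tef are highest at CT34.

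Among the clock kinases, ubiquitin ligases and cofactors, 5 of 14 genes were called (35.7%, against 3.57% of all genes). Usp2, a deubiquitinase that acts on clock proteins, peaked at CT34.0 ± 0.41 h, within the standard error of Tef, with 28.9, 39.9 and 61.8 FPKM as lowest, median and highest value (adjusted p = 0.00676). The CT34 mice were highest, at 61.8 and 55.2 FPKM, and did not overlap the others. Sirt1, the NAD-dependent deacetylase, peaked at CT36.0 ± 0.58 h (adjusted p = 0.0227), and Sfpq, an RNA-binding partner of the PER proteins, at CT20.2 ± 0.67 h (adjusted p = 0.0384). Nampt, which makes the NAD precursor, and Wee1, a cell cycle kinase, were the other two.

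Promoter sequences were searched for E-boxes (CACGTG, the same on both strands) and D-boxes (TTANGTAA, both strands) in the 250 bases before the start of each gene, taken from RefSeq on the GRCm38.p6 build, which is not the mm39 build of the files. Symbols matched 7423 members, 280 of them called. A gene with several starts was counted when any of them held the motif, and 1533 of the matched members had more than 1 start. An E-box was present in 10.6% of the matched members, in 12.9% of the called ones, and in 5 of 15 clock genes (Tef, Per1, Ciart, Bhlhe41 and Cry1). Called genes that peaked from CT30 to CT34 held an E-box in 10 of 44 cases and those from CT22 to CT26 in 4 of 65. These were the highest and lowest shares of the 6 windows. In the windows from CT18, CT26, CT34 and CT38 it was 8 of 51, 6 of 30, 5 of 57 and 3 of 33. A D-box was present in 1.58% of the matched members and in 6 of the 280 called genes, Per3 and Ube2h among them. These shares are descriptions of letters in the windows and were not tested.

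Stretches around these motifs are shown for 3 clock genes and for 3 called genes of metabolism, hormone response and protein turnover described below, since they place the letters beside the peak times. Capitals mark the E-box or D-box, and Per3 holds 2 D-boxes. Another start of Tef also held an E-box, and its stretch is not shown. The stretches lie at chr15:81811256-81811301 on the plus strand for Tef, chr6:145865548-145865593 on the minus strand for Bhlhe41, chr4:151044796-151044890 on the minus strand for Per3, chr19:36736683-36736728 on the minus strand for Ppp1r3c, chr17:28486293-28486338 on the minus strand for Fkbp5, and chr6:30243882-30243929 on the minus strand for Ube2h, all in GRCm38.p6, and are written 5′ to 3′ along the gene.
Tef: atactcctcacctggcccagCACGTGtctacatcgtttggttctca
Bhlhe41: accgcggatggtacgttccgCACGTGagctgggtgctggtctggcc
Per3: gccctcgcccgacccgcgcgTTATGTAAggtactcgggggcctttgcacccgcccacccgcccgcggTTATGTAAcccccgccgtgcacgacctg
Ppp1r3c: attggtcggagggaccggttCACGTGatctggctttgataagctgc
Fkbp5: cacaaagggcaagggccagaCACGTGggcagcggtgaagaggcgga
Ube2h: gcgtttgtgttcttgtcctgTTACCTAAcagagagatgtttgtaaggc
Tef and Bhlhe41, with an E-box, peaked at CT34.0 and CT30.5, whereas Ppp1r3c and Fkbp5, with the same 6 letters, peaked at CT19.6 and CT41.5. Per3 and Ube2h, with D-boxes, peaked at CT33.6 and CT26.9.

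Beyond the clock lists, 11 genes were among the 15 with the lowest p, and 9 of these 11 peaked from CT19.3 to CT24.3. Relt, a receptor of the tumor necrosis factor family, stood at 7.49 and 7.47 FPKM at CT18, 8.78 and 9.74 at CT22, 9.06 and 9.18 at CT26, 6.5 and 6.97 at CT30, 5.01 and 4.68 at CT34, and 5.67 and 5.11 at CT38. The CT22 and CT26 mice were highest and the CT34 and CT38 mice lowest, with a peak at CT23.4 ± 0.2 h (adjusted p = 0.000158). Slc16a9, of the monocarboxylate transporter family, fell from 2.71 FPKM at CT22 to 0.713 at CT34, or 3.8-fold, and peaked at CT20.6 ± 0.23 h (adjusted p = 0.000369). Both CT34 mice, at 0.702 and 0.723 FPKM, were below every other mouse. Pnpla3, which encodes a lipid droplet protein, had a similar course with a larger swing, from 8.96 FPKM at CT22 to 1.86 at CT30, and peaked at CT19.3 ± 0.29 h (adjusted p = 0.000942). The adipocyte marker sum had its lowest mean at CT18 (23.94 FPKM) and its highest at CT30 (47.21 FPKM). The part of adipocytes in the rhythm of Pnpla3 was not tested.

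Kcnc1, a voltage-gated potassium channel gene, peaked at CT41.3 ± 0.24 h, with 34.5 and 34.2 FPKM at CT18 against 23.1 and 23.6 FPKM at CT30 (adjusted p = 0.000369). Arrdc3, an arrestin-like regulator of adrenergic receptors, fell from 12.8 FPKM at CT38 to 4.09 at CT26 and peaked at CT39.2 ± 0.27 h (adjusted p = 0.000693). These 2 peaked after CT38, in the subjective night, apart from the others. Fam20c, the kinase of secreted proteins, peaked at CT24.3 ± 0.27 h, Ahdc1, an AT-hook gene, at CT20.0 ± 0.27 h, and Klhl30, a kelch-like gene, at CT22.8 ± 0.27 h (adjusted p = 0.000693 for all 3). Arhgap20, a GTPase-activating protein gene, peaked at CT21.4 ± 0.29 h, and Dhx32, a helicase-related gene, at CT22.4 ± 0.3 h with an amplitude of only 9.9% of the mean. For Dhx32 the 6 mice of CT18 to CT26 held 11.8 to 12.2 FPKM and the other 6 held 9.79 to 11 FPKM, without overlap.

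Lyl1, a transcription factor of blood and endothelial cells, peaked at CT24.3 ± 0.27 h with a range from 0.937 to 2.06 FPKM (adjusted p = 0.000693). In such bulk samples, fewer cells of a type and less RNA per cell cannot be told apart. The summed endothelial markers were highest at CT26 (98.56 FPKM) and lowest at CT38 (80.41 FPKM), and Lyl1 was highest at CT26 and lowest at CT34 and CT38. Not all of these markers shared the course of the sum, and Flt1 was highest at CT34 and lowest at CT22. The part of endothelial cells in the rhythm of Lyl1 was not tested.

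**Figure D3:**
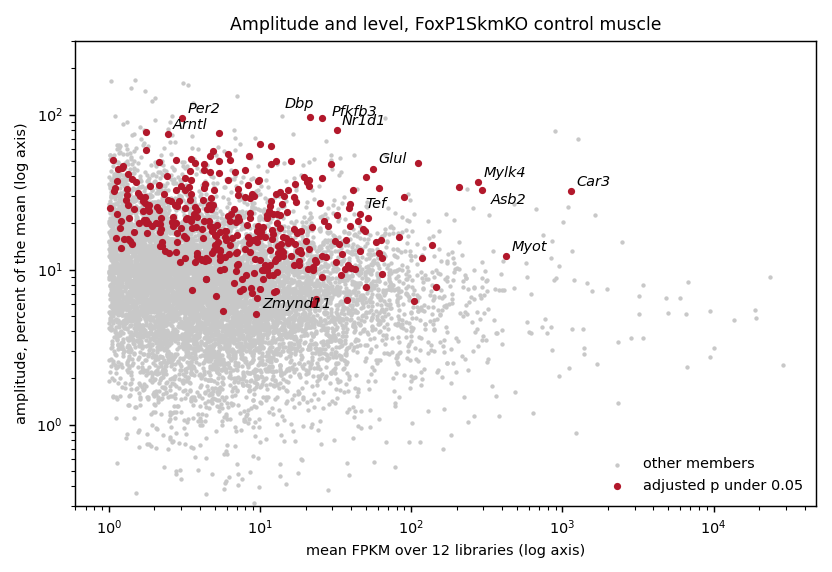
Relative amplitude in percent of the mean (vertical, log axis) against mean FPKM (horizontal, log axis) for 10029 genes of FoxP1SkmKO control muscle, with the 358 called genes marked. Called genes lie above most others of the same level, from 5.19% to 97.3%, and Car3 has the largest mean of the called genes (1136 FPKM).

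Carbonic anhydrase III, encoded by Car3 and abundant in muscle, had the highest mean of the called genes, 1136 FPKM, and the largest amplitude in FPKM. Its mice stood at 1434 and 1602 FPKM at CT18, 1224 and 1202 at CT22, 899 and 976 at CT26, 830.0 and 817 at CT30, 793 and 1030.0 at CT34, and 1230.0 and 1596 at CT38. The mice of CT18 and CT38 were the highest and those of CT30 among the lowest, and these groups did not overlap. The amplitude was 364.5 ± 52 FPKM or 32.1% of the mean, with a peak at CT41.5 ± 0.55 h (adjusted p = 0.0191), and the call was lost in 1 of the 12 fits that leave out 1 library. Mylk4, a myosin light chain kinase family gene, peaked at CT36.8 ± 0.45 h with 102 ± 12 FPKM (adjusted p = 0.00963). Asb2, a muscle ubiquitin ligase subunit, peaked at CT21.2 ± 0.32 h with 95.8 ± 8.1 FPKM (adjusted p = 0.00195). Asb2 held 333 to 389 FPKM in the mice of CT18 to CT26 and 186 to 267 FPKM in the rest, with no overlap.

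Glucose handling had 4 called of 27 measured gene models (14.8%, against 3.57% of all 10029 genes), and their peaks were spread over the day. Tbc1d1, a Rab GTPase-activating protein that controls movement of the glucose transporter GLUT4, stood at 38 and 36.5 FPKM at CT18, 23.3 and 22.6 at CT22, 18.7 and 18.8 at CT26, 16.8 and 19.2 at CT30, 22.7 and 22 at CT34, and 33.8 and 33.6 at CT38. Mice of CT18 and CT38 were highest and did not overlap the others, with a peak at CT40.4 ± 0.41 h (adjusted p = 0.00664). Pfkfb3, which makes the glycolytic activator fructose 2,6-bisphosphate, peaked at CT29.2 ± 0.67 h with a relative amplitude of 94.8% (adjusted p = 0.0372). Its mice stood at 12.2 and 8.13 FPKM at CT18, 13.5 and 12 at CT22, 48.9 and 25.6 at CT26, 58.6 and 64 at CT30, 26.5 and 22.9 at CT34, and 6.19 and 10.1 at CT38. The CT30 mice were above all others and the CT26 mice stood far apart. Its call was lost in 11 of the 12 fits that leave out 1 library, and the adipocyte marker sum was also highest at CT30 (47.21 FPKM); its part in the result was not tested.

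Aldolase A, a glycolytic enzyme abundant in muscle, has 2 gene models under the symbol Aldoa in the table, side by side on the minus strand. The model with nearly all of the signal (ENSMUSG00000030695, chr7:126394406-126399923 in mm39) had a mean of 5026 FPKM and was not called, with an amplitude of 5.22% of the mean (adjusted p = 0.335). The other (ENSMUSG00000114515, chr7:126399962-126408280) had a mean of 117 FPKM and was called, with a peak at CT19.7 ± 0.65 h and an amplitude of 11.9% (adjusted p = 0.0339). Hk2, the insulin-responsive hexokinase, was the remaining called gene of the list. The other glycolytic enzymes, the glucose transporter genes and the pyruvate dehydrogenase kinases of the list were not called. In glycogen metabolism 1 of 14 genes was called (7.14%, against 3.57% of all genes). It was Ppp1r3c, which targets protein phosphatase 1 to glycogen: its values were 146 and 146 FPKM at CT18, 124 and 172 at CT22, 123 and 114 at CT26, 61.6 and 52.1 at CT30, 52.6 and 53.1 at CT34, and 158 and 121 at CT38. All 4 mice of CT30 and CT34 lay at or below 61.6 FPKM and all others at or above 114 FPKM, with a peak at CT19.6 ± 0.63 h (adjusted p = 0.0307). The call of Ppp1r3c was lost under 16 of the 27 alternative fits described below.

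Fatty acid use had 1 called gene of 32, and this share of 3.12% is near the 3.57% of all genes. It was Ppargc1a, which encodes the coactivator PGC-1 alpha and peaked at CT40.5 ± 0.5 h with 12.1% amplitude (adjusted p = 0.0142). Plin4, a lipid droplet coat gene, had its highest mean at CT38 but missed the threshold (adjusted p = 0.0772). None of 19 tricarboxylic acid cycle genes, none of 90 genes matched as oxidative phosphorylation and none of 30 mitochondrially encoded genes was called, and these lists had 1, 3 and 0 genes at an unadjusted p under 0.01. The share called over all genes was 3.57%, and 0 calls in a list of 19 or 30 genes is near it. In the list of 90, 3.33% had an unadjusted p under 0.01, against 9.21% of all genes, and these shares were not tested. The 3 of oxidative phosphorylation were Ndufa4l2, Ndufs6 and Ndufa1, of which Ndufa1 stood at 45.8 and 52.4 FPKM at CT18 and at 137 and 127 FPKM at CT34 (adjusted p = 0.102).

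Lipid and sterol synthesis had 2 called genes of 20 (10%, against 3.57% of all genes). Gpam, whose enzyme starts triglyceride synthesis, peaked at CT34.2 ± 0.47 h with values of 58.5 and 56.6 FPKM at CT34 and 40.7 and 39 FPKM at CT22 (adjusted p = 0.012). Srebf1, the lipogenic transcription factor, peaked at CT23.7 ± 0.66 h, close to the opposite time of day (adjusted p = 0.036). Srebf2, its sterol-regulating relative, had a fitted peak at CT21.4 ± 0.84 h and did not pass (adjusted p = 0.0746).

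**Figure D4:**
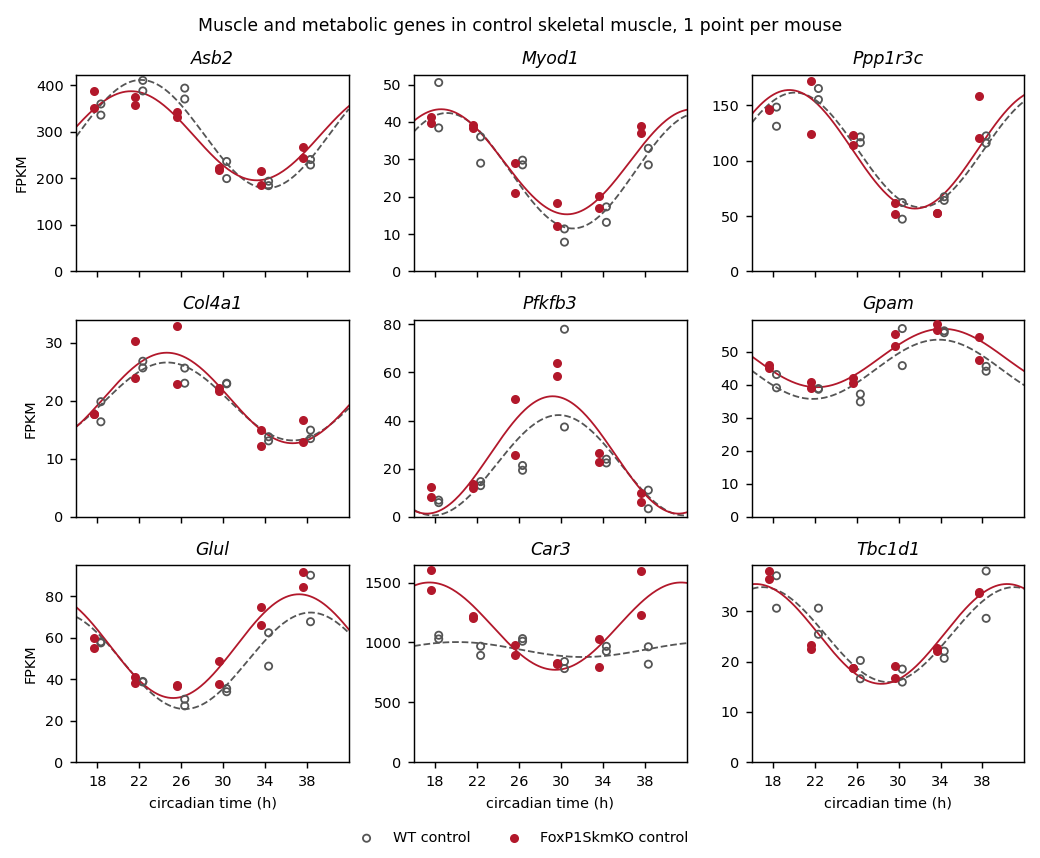
FPKM (vertical axes, from 0) against circadian time (horizontal axes) for 9 called genes outside the core clock; points are mice, drawn slightly apart at each time, and lines the fitted 24 h sinusoids in FoxP1SkmKO control (filled, solid) and WT control muscle (open, dashed). Myod1, Tbc1d1 and Ppp1r3c are low in the FoxP1SkmKO control mice of CT30, and the amplitude of Car3 is 364.5 FPKM in FoxP1SkmKO control and 62.5 FPKM in WT control muscle.

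Of 45 proteasome genes 3 were called (6.67%, against 3.57% of all genes): Psmd11, Psma3 and Psmc6, with peaks at CT35.4, CT32.8 and CT36.5 and amplitudes of 7.25%, 12.9% and 13.4% of the mean. Psmd11, a subunit of the proteasome lid, was between 11.5 and 12.3 FPKM in the CT22 and CT26 mice and between 13.3 and 13.8 in those of CT34 and CT38, without overlap (adjusted p = 0.0184). The calls of Psmd11, Psma3 and Psmc6 were lost under 12, 16 and 21 of the 27 alternative fits described below. Limma and edgeR were among those that lost Psmd11. Ube2h, a ubiquitin-conjugating enzyme, peaked at CT26.9 ± 0.4 h (adjusted p = 0.00553). Of 15 ubiquitin ligases linked to muscle mass only Asb2 was called (6.67%), while Fbxo32 and Trim63, which encode atrogin-1 and MuRF1, were not. Wipi2, which acts in autophagosome formation, was the called gene among 28 autophagy genes (3.57%, the same as over all genes), with a peak at CT31.5 ± 0.58 h and 8.66% amplitude (adjusted p = 0.0229). Its call was lost by limma and edgeR and in 5 of the 12 fits that leave out 1 library.

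Genes known to respond to glucocorticoids had 4 called members of 19 (21.1%, against 3.57% of all genes) and 7 with an unadjusted p under 0.01 (36.8%, against 9.21%). Of these 7, 5 peaked between CT38 and CT42, a window that held 14.8% of all genes at that p. Glul, glutamine synthetase, stood at 59.6 and 55.1 FPKM at CT18, 40.8 and 38 at CT22, 36.6 and 37.2 at CT26, 48.8 and 37.9 at CT30, 65.9 and 74.8 at CT34, and 84.3 and 91.5 at CT38. The CT38 mice were highest and did not overlap any other time, and the peak was at CT37.2 ± 0.44 h (adjusted p = 0.00936). Slc38a2, a neutral amino acid transporter, peaked at CT41.9 ± 0.43 h (adjusted p = 0.00816), and Fkbp5, a chaperone partner of the glucocorticoid receptor, at CT41.5 ± 0.6 h (adjusted p = 0.0272). Fkbp5 fell from 6.44 FPKM at CT18 to 2.47 at CT30, and 7 of the 12 fits that leave out 1 library lost its call. Klf9, a Krüppel-like factor, was the remaining called gene. Glul and Slc38a2 are also among the 3 called genes of 23 (13.0%) in amino acid and polyamine handling, with Slc7a8, an amino acid transporter, at CT39.4 ± 0.7 h (adjusted p = 0.0447).

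Heat shock genes had 1 called member of 20 (5.0%, against 3.57% of all genes), the cochaperone gene Dnajb4, which peaked at CT38.4 ± 0.63 h (adjusted p = 0.0306). Dnaja1, of the same family, had its highest mean at the same time, 5.16 FPKM at CT38 against 2.97 FPKM at CT26, and missed the threshold (adjusted p = 0.0595). In insulin and mTOR signaling 1 of 26 genes was called (3.85%), the receptor gene Igf1r, at CT32.8 ± 0.72 h (adjusted p = 0.0493, lost in 11 of the 12 fits that leave out 1 library).

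Myogenic regulators and myostatin signaling held 4 called genes of 17 (23.5%, against 3.57% of all genes). Myod1, the master myogenic factor, stood at 41.3 and 39.6 FPKM at CT18, 38.5 and 39.1 at CT22, 21 and 29.1 at CT26, 12.2 and 18.4 at CT30, 16.9 and 20.3 at CT34, and 36.9 and 38.9 at CT38. The mice of CT18, CT22 and CT38 all lay above those of CT26, CT30 and CT34. Myod1 peaked at CT18.6 ± 0.39 h with an amplitude of 47.9% (adjusted p = 0.00536). Srf, a factor that drives actin and contractile genes, peaked at CT25.7 ± 0.57 h with 12.6% (adjusted p = 0.0218). Acvr1b, an activin receptor gene, was also called.

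None of 13 fast-fiber and none of 9 slow-fiber genes was called or had an unadjusted p under 0.01, and their median amplitudes were 3.14% and 9.01% of the mean. With 3.57% of all genes called, a count of 0 in lists of this size is near the background. Myot, which encodes the Z-disc protein myotilin, was the called gene of 24 in the Z-disc and M-band list (4.17%). It was at 484 and 489 FPKM at CT18 and 371 and 371 FPKM at CT30, with a peak at CT41.4 ± 0.4 h (adjusted p = 0.00593). None of 76 ribosomal protein genes was called, and 1 had an unadjusted p under 0.01 (Rps21, 1.32%, against 9.21% of all genes). None of 16 immediate early genes or 9 forkhead factor genes was called or had such a p.

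Collagens had 2 called chains of 18 (11.1%, against 3.57% of all genes), Col4a1 and Col4a2, which form the basement membrane network. Col4a2 fell from 27.1 FPKM at CT26 to 12.4 at CT34, with a peak at CT25.2 ± 0.53 h (adjusted p = 0.0173), and Col4a1 peaked at CT24.6 ± 0.64 h (adjusted p = 0.0332). Both genes were lowest at CT34, where the summed fibroblast markers were also lowest (42.41 FPKM at CT34 against 72.47 FPKM at CT18), and endothelial markers were highest at CT26. The fibroblast list itself holds the collagen genes Col1a1, Col1a2 and Col3a1, and none of its genes was called. The part of fibroblasts and endothelial cells in the collagen rhythm was not tested.

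Slc8a1, Cdc14b, Ppid and Zfp703 were each among the 3 called genes of lowest p in their peak window, though none was the first. Slc8a1, a sodium-calcium exchanger, peaked at CT28.0 ± 0.45 h and fell from 1.72 FPKM at CT30 to 0.576 at CT38 (adjusted p = 0.0109). Cdc14b, a phosphatase gene, peaked at CT34.7 ± 0.39 h (adjusted p = 0.00536), and Ppid, which encodes a cyclophilin, at CT34.6 ± 0.4 h (adjusted p = 0.00588). Zfp703, a zinc finger gene, peaked at CT41.6 ± 0.37 h, with 18.9 and 17.7 FPKM at CT18 against 9.45 and 9.97 FPKM at CT30 (adjusted p = 0.00446). Rgs2, a regulator of G protein signaling and among the 10 largest relative amplitudes, had a relative amplitude of 77.9% and a peak at CT42.0 ± 0.65 h (adjusted p = 0.0339), with 9 of the 12 fits that leave out 1 library losing its call. A gene with only a Gm model name, also among these 10, is passed over.

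Of the 63 named genes that were called, 36 kept the call in all 12 fits that leave out 1 library, and 18 kept it under every alternative run for them: Arntl, Nr1d1, Nr1d2, Per2, Per3, Dbp, Tef, Usp2, Relt, Slc16a9, Kcnc1, Fam20c, Ahdc1, Klhl30, Pnpla3, Arhgap20, Dhx32 and Asb2. These were 27 alternatives, or 26 for genes with a mean below 5 FPKM, which did not enter the fit with that minimum. The 27 genes that lost it in at least 1 of these 12 fits included Clock, Per1, Hlf, Sirt1, Sfpq, Pfkfb3, Aldoa (ENSMUSG00000114515), Ppp1r3c, Srebf1, Psmd11, Psma3, Psmc6, Wipi2, Fkbp5, Slc7a8, Dnajb4, Igf1r, Srf, Col4a1, Rgs2, Car3, Cant1, Otub2, Crk, Zmynd11 and a Gm gene model. Among them, Srebf1, Col4a1 and Dnajb4 lost the call under 19, 19 and 17 of their 27 alternatives, and Hlf and Slc7a8 under 16 and 20 of their 26. No peak of the 63 moved by over 6 h under any alternative run.

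The rhythms of FoxP1SkmKO control muscle were next set against those of WT control muscle, to ask whether loss of FoxP1 in fibers went with other rhythms. The F test of the difference in sinusoid called none of the 10029 genes (lowest adjusted p = 0.8029), with 557 at an unadjusted p under 0.05, which is 5.55%. Other tools gave 0 calls by limma and edgeR and 3 by DESeq2 (Rgs2, Car3 and Otub2). The sinusoid test in the 12 WT control libraries called 422 of the same genes, and 128 were called in both groups, which is 35.75% of the calls in FoxP1SkmKO control and 30.33% of those in WT control. Of the 358 genes called in FoxP1SkmKO control, 310 (86.59%) had a WT control peak within 3 h, against 51.73% of all members. The difference test had an unadjusted p under 0.05 in 57 of the 358, or 15.92%, and these genes were selected on the FoxP1SkmKO control values that enter that test.

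Most clock genes had an earlier fitted peak in FoxP1SkmKO control than in WT control muscle, but no difference passed the test. Of the 16 clock genes with an unadjusted p under 0.01, 15 had an earlier fitted peak, and the differences (FoxP1SkmKO minus WT) had a median of -0.818 h and ran from -2.77 h in Clock to 0.334 h in Bhlhe41. These genes are coupled and come from the same mice, so they are not independent. Arntl peaked at CT21.6 against CT22.5 ± 0.29 h in WT control, a difference of -0.826 ± 0.34 h (unadjusted p = 0.0734). Nr1d1 peaked at CT27.6 against CT28.5 ± 0.28 h, a difference of -0.866 ± 0.34 h (unadjusted p = 0.0229). Nfil3 differed by -0.855 ± 0.5 h in peak time and by -2.51 ± 0.983 FPKM in amplitude (unadjusted p = 0.0223). The other 14 of these 16 genes had an unadjusted p above 0.05. Rora, not among the 16, was called in WT control (adjusted p = 0.0171) but not in FoxP1SkmKO control. Its amplitude was 0.574 ± 0.22 FPKM in FoxP1SkmKO control and 1.34 ± 0.18 FPKM in WT control (unadjusted p = 0.045 for the difference). The unadjusted p-values test peak time and amplitude jointly and are not tests of the shift alone. Among all 128 genes called in both groups, 96 peaked earlier in FoxP1SkmKO control, with a median difference of -0.698 h and a largest of 3.76 h in either direction.

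**Figure D5:**
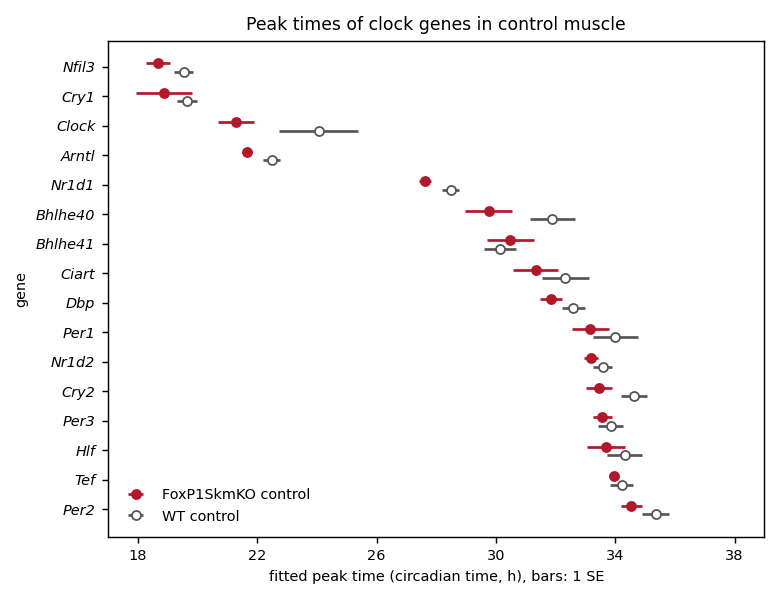
Fitted peak time in circadian hours (horizontal axis, bars 1 SE) of the 16 clock genes with an unadjusted p under 0.01 (vertical axis) in FoxP1SkmKO control and WT control muscle. In 15 of the 16 the FoxP1SkmKO control point lies to the left of (earlier than) the WT control point, and the median difference is -0.818 h.

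Amplitudes were compared on lists chosen in each group. Among the 358 calls in FoxP1SkmKO control the median ratio of the WT to the FoxP1SkmKO amplitude was 0.923, among the 422 calls in WT control the median ratio of the FoxP1SkmKO to the WT amplitude was 0.757, and among the 128 calls in both that ratio was 0.9. Of the 16 clock genes, 10 had a smaller amplitude in FoxP1SkmKO control, with a median ratio of 0.97. The largest amplitude ratio among the named genes that had the lowest p for the difference was that of Car3: 364 ± 52 FPKM in FoxP1SkmKO control and 62.5 ± 35 FPKM in WT control (unadjusted p = 0.000343).

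Car3 in WT control muscle had a lowest, median and highest value of 782, 966 and 1060.0 FPKM, against 793, 1116 and 1602 FPKM in FoxP1SkmKO control, and the ranges overlapped. The other genes of lowest p were Cant1, a nucleotidase gene (FoxP1SkmKO minus WT 7.99 ± 1.4 h, p = 0.000189), Qsox2, a sulfhydryl oxidase gene (10.7 ± 1.4 h, p = 0.000299), Klhl30 (-1.61 ± 0.35 h, p = 0.000378) and Otub2, a deubiquitinase gene (-5.36 ± 1.1 h, p = 0.000484). These p-values are unadjusted, and none passed the threshold after adjustment over 10029 genes. Qsox2 was not called rhythmic in FoxP1SkmKO control muscle, and Cant1 lost its call by limma, edgeR and DESeq2. Klhl30 peaked at CT22.8 ± 0.27 h in FoxP1SkmKO control and at CT24.4 ± 0.21 h in WT control, and Otub2 fell from 11.5 FPKM at CT18 to 3.73 at CT34 in FoxP1SkmKO control muscle.

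The same FoxP1SkmKO control libraries were then compared with FoxP1SkmKO mice bearing KPC tumors, so the 2 comparisons share these 12 libraries. The F test of the difference in sinusoid again called no gene (lowest adjusted p = 0.1095), with 811 genes (8.09%) at an unadjusted p under 0.05. Other tools gave 0 calls by limma, 1 by edgeR (Aldoa, model ENSMUSG00000114515) and 44 by DESeq2. The F test called 5 genes without KPC CT18 replicate 1 (Iars2, Kcnc1, Kat6b, Adcy4 and Myh9) and 1 without KPC CT18 replicate 2 (Aldoa). In KPC muscle 69 genes were called, and 45 were called in both groups, which is 12.57% of the control calls and 65.22% of the KPC calls. Of the 358 control calls 279 (77.93%) had a KPC peak within 3 h, against 43.22% of all members, and the median ratio of the KPC to the control amplitude over the 358 was 0.785. Among the 69 KPC calls the median ratio of the control to the KPC amplitude was 0.94, and among the 45 calls in both it was 0.981.

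The Aldoa model of low level (ENSMUSG00000114515) had the lowest p for this difference, with a peak at CT19.7 ± 0.65 h in control and CT28.3 ± 0.75 h in KPC muscle and a difference of -8.6 ± 0.99 h (control minus KPC, unadjusted p = 1.09e-05), whereas the model that holds most of the signal had p = 0.861. Crk, an adaptor protein gene, differed by -6.62 ± 1.2 h and Zmynd11, a chromatin reader gene, by 5.61 ± 1 h (unadjusted p = 0.000121 and 0.000214). Their calls in control muscle were lost under 15 (Crk) and 17 (Zmynd11) of the 27 alternatives. Limma, edgeR and DESeq2 were among those that lost Zmynd11. Selenbp1, a selenium-binding protein gene, and Prkch, a protein kinase C gene, had unadjusted p-values of 0.000188 and 0.00019 and were not called in control muscle. Of the 16 clock genes 15 peaked later in control than in KPC muscle, with a median difference of 0.763 h, and only Tef among them had an unadjusted p under 0.05 for the difference (1.56 ± 0.4 h, p = 0.00447). Slc16a9 peaked 1.39 ± 0.36 h later in control muscle, and its amplitude was 1.03 FPKM there and 1.49 FPKM in KPC muscle (unadjusted p = 0.0003).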

How the data were processed

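RNA of tibialis anterior muscle was sequenced as poly(A) mRNA, with paired-end reads. The authors deposited raw counts per gene and FPKM, which they computed from these counts, the gene lengths and the library size. The methods name STAR and HTSeq on mm39, whereas the submitters' processing notes list HISAT2 2.0.5 and DESeq2 1.20.0, so the aligner is uncertain. The authors' own comparisons of KPC and control mice (log2 fold changes and p-values) were not used. Columns were matched to samples by their names, and counts missing for genes outside the deposited count tables were recovered from FPKM as whole reads (at most 0.006416% of a library).

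Genes with a mean of at least 1 FPKM in the 12 FoxP1SkmKO control libraries were fitted in Python 3.11 (NumPy 2.4.6, SciPy 1.17.1, pandas 2.3.3) with a least-squares 24 h sinusoid, without a pseudocount, and tested by an F test with 2 and 9 degrees of freedom. Differences in rhythm from WT control and FoxP1SkmKO KPC muscle were F tests of 2 terms with 18 residual degrees of freedom. Adjustment was by Benjamini-Hochberg over all 10029 genes. Alternatives used limma 3.58.1, edgeR 4.0.16 (TMM, quasi-likelihood) and DESeq2 1.42.0 in R 4.3.3, pseudocounts of 1 and 0.1, other FPKM filters, an added 12 h harmonic, and each library or circadian time left out. Aldoa is the symbol of 2 gene models, which are told apart by their identifiers. The sinusoid fit, the difference test and their limma, edgeR and DESeq2 alternatives were tested on simulated data. Each library is 1 mouse per the labels.

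The members and gene lists were chosen with earlier results of these data known. Named genes were Foxp1, all members of the clock lists, the 15 lowest p-values, the 10 largest relative amplitudes, the 3 lowest p-values in each peak window, the 3 largest amplitudes in FPKM, up to 3 genes of lowest p in every other list with an unadjusted p under 0.01, the 5 lowest p-values of each difference, and the genes next to 1 FPKM. Hk2, Nampt, Wee1, Klf9, Acvr1b, Fbxo32 and Trim63, and the cell type markers, were named after their values were seen. Some genes that these rules pick are not reported here. Sequences are from RefSeq. Genes that share reads with close copies or lie antisense to others carry the uncertainty of the authors' counting.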

Additional observations from a re-analysis of the deposited data

How the results depend on the processing

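The number of rhythmic genes depended on the method: against 358, limma gave 569 with either pseudocount (1 or 0.1), edgeR 777, DESeq2 1247, the unadjusted p under 0.01 gave 924, no filter on FPKM (28711 genes) 119, and 1 coefficient per circadian time 68. A mean of at least 5 FPKM gave 322 and an added 12 h harmonic 335. Leaving out a whole time gave 98 (CT18), 101 (CT22), 77 (CT26), 211 (CT30), 86 (CT34) and 115 (CT38). Leaving out 1 library gave 155 to 323. The count fell by over 1.5 times without CT18 replicate 2 (193), CT22 replicate 2 (167), CT26 replicate 1 (211) or 2 (181), CT30 replicate 2 (191), CT34 replicate 1 (155) or 2 (201), and CT38 replicate 1 (225) or 2 (235), with fewer samples in each fit.

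For the difference from WT control, with 0 calls, DESeq2 gave 3, 1 coefficient per circadian time 3 (Ddx17, Uqcr10 and Srrm2), and the unadjusted p under 0.01 gave 103. For the difference from FoxP1SkmKO KPC, edgeR gave 1, DESeq2 44 and the unadjusted p under 0.01 gave 201. The cause was not tested. Leaving out 1 library of either group (those of WT control and KPC added after seeing the data) called 0 genes in the difference from WT control and 0 to 5 in that from KPC, with 5 without KPC CT18 replicate 1, 1 without KPC CT18 replicate 2 and 0 in the other 22 fits.

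Replicate numbers did not pair the mice: correlations of their deviations from the time means ran from -0.0435 to 0.126 over 15 pairs of times. With the replicate block 360 genes were rhythmic, 300 of them among the 358, both differences stayed at 0, and Foxp1 differed by -0.0525 FPKM (exact permutation p = 0.235). Foxp1 without 1 library differed by -0.0584 to -0.039 FPKM, with exact permutation p from 0.134 to 0.344. With 2 mice per time, 45 of the 63 named calls were lost under at least 1 alternative, and 21 of the 26 named genes not called were called under at least 1.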

Other observations

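Markers of cells other than fibers also varied with circadian time. Fabp4, a fatty acid-binding protein gene of adipocytes and endothelial cells, peaked at CT29.4 ± 0.7 h and ran from 16.6 to 27.5 FPKM (adjusted p = 0.0442). Sdc4, a syndecan gene of satellite cells that other cells also express, peaked at CT20.6 ± 0.66 h (adjusted p = 0.0365), and Cdh15, the M-cadherin gene, missed the threshold (adjusted p = 0.0622). The endothelial genes Cdh5, Tie1 and Kdr had fitted peaks at CT25.3, CT26.4 and CT24.6, with adjusted p-values of 0.0627, 0.0682 and 0.0682. Of the rest of that list, Egfl7, Pecam1, Vwf and Emcn had fitted peaks from CT23.0 to CT27.2. Flt1 differed from them, with a fitted peak at CT33.8 (adjusted p = 0.139), and no endothelial marker passed. The 5 macrophage genes measured (C1qa, C1qb, C1qc, Csf1r and Cd68) had amplitudes of 49.4% to 62.9% of the mean and fitted peaks from CT19.4 to CT21.7, and none passed (lowest adjusted p = 0.115). The macrophage marker sum ran from 6.18 to 34.9 FPKM, with means of 26.6 FPKM at CT18 and 8.84 FPKM at CT34. The erythroid sum ran from 113 to 306 FPKM and the tendon sum from 18 to 49.2 FPKM, and no gene of these lists was called.

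A pair of terms with a period of 12 h, added to the 24 h sinusoid, had an unadjusted p under 0.01 in 359 genes (3.58%), and no gene passed after adjustment (lowest adjusted p = 0.0757). The lowest p-values belonged to Uqcr10 and Cox6b1, subunits of respiratory complexes III and IV, with 12 h amplitudes of 40.4 and 33.7 FPKM on means of 261 and 239 FPKM and first fitted peaks at CT22.8 and CT23.8. Dbp followed, with a 12 h amplitude of 5.78 FPKM beside its 24 h rhythm. Ndufv3, Rpl37a and Timm8b, of mitochondrial complex I, the ribosome and mitochondrial import, were also among the 10 lowest, with first fitted peaks from CT22.9 to CT23.2. With 6 times the 12 h and 24 h terms leave few degrees of freedom, and these values are descriptions. In the promoter windows, a forkhead motif (GTAAACA, both strands) was present in 12 of the 280 called genes (4.29%) and in 2.65% of all matched members, and a cyclic AMP response element (TGACGTCA) in 11 of the 280 and in 3.29% of all. These shares were not tested.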
